A study of Oryza sativa Indica Group with 8 samples.

Results

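The annotation of known rice miRNAs lists 61 identifiers that have a single position in the genome and lie beside another such identifier on the same strand, with at most 200 bases between them or overlapping. They were chosen from 285 known identifiers, of which 193 have a single position, by position alone. No expression value entered the choice. They make up 31.6% of the single-position identifiers and 21.4% of all identifiers, and fall into 30 loci. All 61 have a row in the authors' table of known miRNAs. That table lists 285 identifiers, as many as the annotation, and whether members were detected was not analysed.

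The study sequenced small RNA from panicles of rice, labelled as the Indica Group, in 8 libraries. The genotypes are Basmati370, KolaJoha, ThururBhog and IC463254, each at low_nitrogen and at rec_nitrogen, with 1 library for each genotype and level. Names of all 1233 alignments in the annotation end in 39947, the NCBI taxon of the Japonica Group, and whether the positions hold in these genotypes was not tested. The 8 value columns of each of the count tables carry names that match no label of the samples, and their values were not used. The balance between members of a pair, their levels and their response to nitrogen are therefore not analysed here. Depth per library is not given for the same reason.

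A plant miRNA gene is transcribed into an RNA that folds back on itself as a hairpin, and Dicer-like enzymes cut a short duplex out of its stem. One strand of that duplex is usually loaded into an Argonaute protein and guides silencing of matching transcripts, while the strand from the opposite arm, the star strand, is usually degraded. Identifiers for both arms of one hairpin lie on the same strand, apart by the loop and whatever stem lies beyond the duplex. In plants the distance between the arms varies much more from gene to gene than it does in animals. The files hold positions and no sequences, and the identifiers are not paired with miRNA names there. Whether a given pair folds as a hairpin was not analysed here. Positions count from 1 on the authors' genome build, which no source used here names.

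There were 27 loci with exactly 2 single-position identifiers that shared no base, called separate pairs here. Identifiers with several positions were not counted, and 4 of these pairs also held such an identifier, as given below. Another 2 loci held overlapping single-position identifiers and 1 locus held 3 single-position identifiers. Dropping the condition of a shared strand added no member: of the 32 combinations of single-position identifiers within 200 bases, 32 were on the same strand and 0 on opposite strands. The loci were split between strands, with 17 on plus and 13 on minus. No member alignment had a gap.

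**Figure D1:**
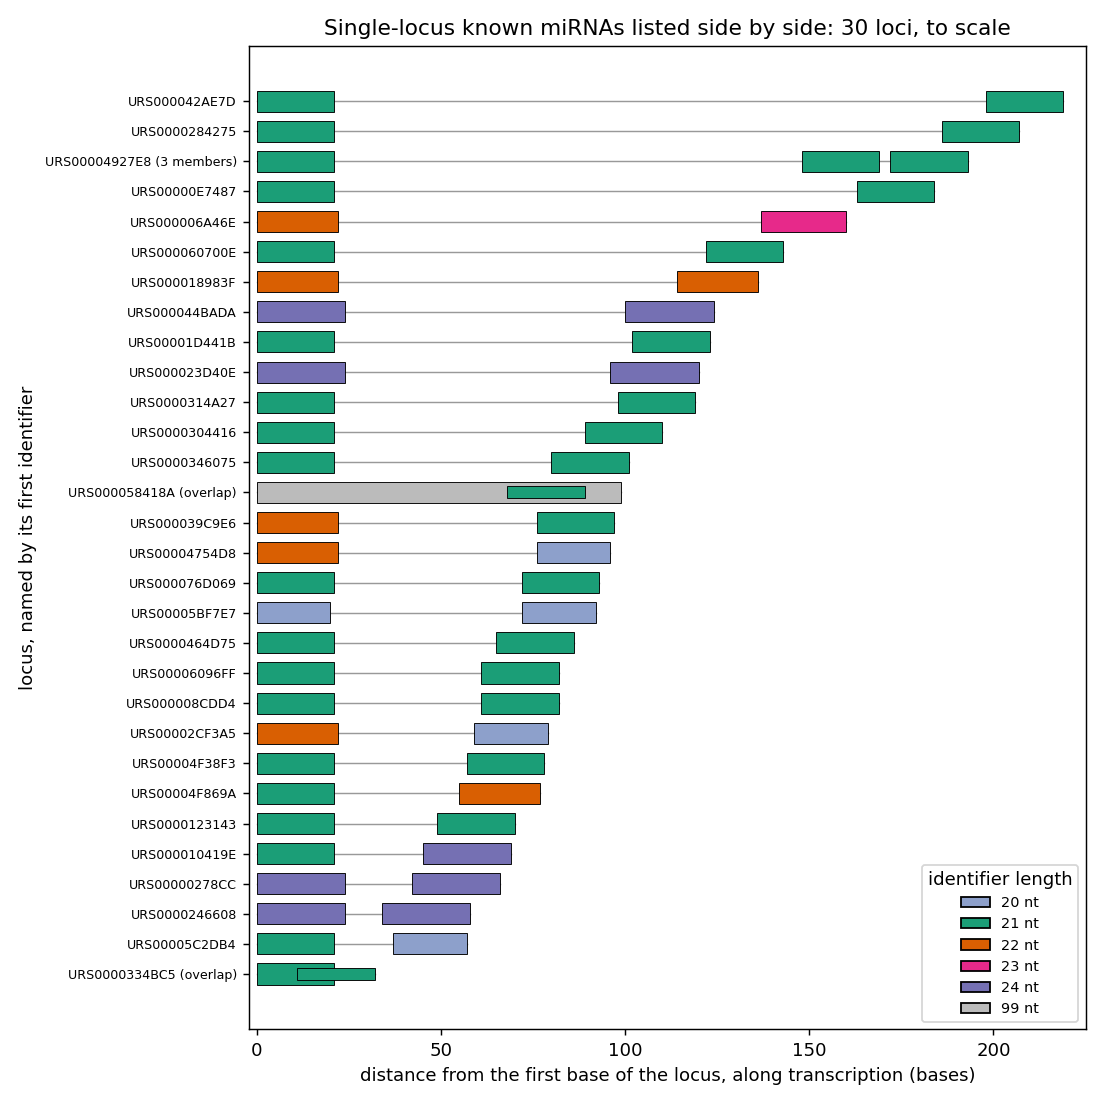
Each row is 1 of the 30 loci, drawn to scale from its first base in the direction of transcription (x axis, bases), with a bar for each identifier coloured by its length. Among the separate pairs the spans run from 57 bases to 219 at the top, and 38 of the 61 bars are 21 nt long.

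The distance between the members of the separate pairs, which the rule holds to at most 200 bases, varied among them. The median was 54 bases, with quartiles of 36.5 and 79, and the mean was 65.3 ± 43.5 (SD, n = 27). The range ran from 10 to 177 bases. The distance was under 50 bases in 11 pairs, from 50 to 99 in 11, from 100 to 149 in 3 and from 150 to 200 in 2. Measured from the first base of one member to the last base of the other, the pairs spanned a median of 96 bases, from 57 to 219. The limit of the rule fell in an empty stretch. The widest pairs inside it had 165 and 177 bases between members. The next single-position identifiers on one strand were 333 bases apart (URS0000477203 and URS000058D5A9, chromosome 4), then 358 (URS00003A4BF2 and URS00004AE755, chromosome 1) and 487 (URS0000293177 and URS0000451126, chromosome 2).

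The most compact pairs were on chromosomes 4, 3, 8, 2 and 6. Of these 5, 1 joined 21-nt members on both sides, against 14 of all 27 separate pairs. URS0000246608 and URS000006D706, both 24 nt, lay on the plus strand of chromosome 4 from 18470799 to 18470856 with 10 bases between them. On the minus strand of chromosome 3, from 34275156 to 34275212, the 21-nt URS00005C2DB4 and the 20-nt URS000032A56D were 16 bases apart. This pair had the shortest span, 57 bases. URS00000278CC and URS0000265462, again both 24 nt, were 18 bases apart on the plus strand of chromosome 8, from 26181393 to 26181458. On the minus strand of chromosome 2, from 1553162 to 1553230, the 21-nt URS000010419E and the 24-nt URS00001C9D79 were 24 bases apart. URS0000123143 and URS0000113796, both 21 nt, were 28 bases apart on the minus strand of chromosome 6, from 5073521 to 5073590.

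Among the widest pairs, 4 of 5 joined 21-nt members on both sides, against 14 of all 27 separate pairs. A link of length with distance was not tested. URS000042AE7D and URS00000563EC had 177 bases between them on the plus strand of chromosome 1, from 6443398 to 6443616. URS0000284275 and URS0000487A0C were 165 bases apart on the minus strand of chromosome 11, from 1384745 to 1384951. URS00000E7487 and URS00000C43D5 were 142 bases apart on the minus strand of chromosome 2, from 32435097 to 32435280, and enclosed an identifier with several positions. These 3 loci therefore spanned between 184 and 219 bases. URS000060700E and URS000003D781 were 101 bases apart on the plus strand of chromosome 1, from 12301691 to 12301833. The exception in length was URS000006A46E, 22 nt, with URS0000530794, 23 nt, at 115 bases on the minus strand of chromosome 2, from 35636555 to 35636714. It holds the only 23-nt member.

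The length of a plant miRNA depends in part on the enzyme that cut it. DCL1 makes mostly 21-nt miRNAs, and DCL3 makes the 24-nt long miRNAs of rice, which can direct DNA methylation. Some 22-nt miRNAs set off the production of secondary small RNAs from their targets. Of the 61 members, 38 were 21 nt (62.3%), 9 were 24 nt (14.8%), 7 were 22 nt (11.5%), 5 were 20 nt (8.20%) and 1 each had 23 and 99 nt. Among the 132 single-position identifiers with no such neighbour, 75 were 21 nt (56.8%), 26 were 24 nt (19.7%) and 15 were 22 nt (11.4%). Among the 92 identifiers with several positions, 46 were 21 nt (50%), 17 were 24 nt (18.5%) and 22 were 22 nt (23.9%). Members of a pair may share a precursor and are not independent, so these shares were set side by side and not tested, and no length is called particular to the members.

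**Figure D2:**
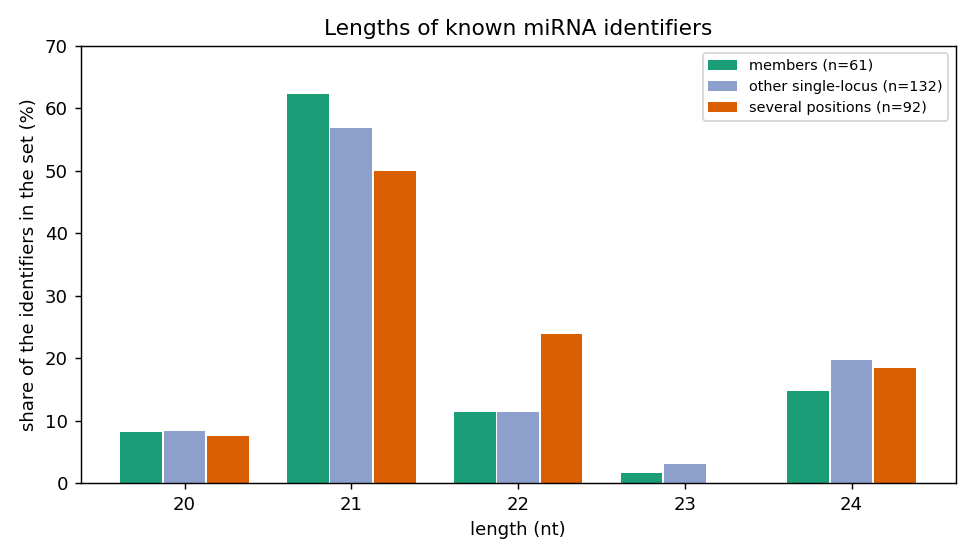
Bars give the share of identifiers (y axis, percent) at each length from 20 to 24 nt (x axis) for the 61 members, the 132 other single-position identifiers and the 92 identifiers with several positions. The 21-nt class is the largest in each set; identifiers of 99 and 106 nt are not drawn.

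Members of a pair mostly had the same length. The lengths were equal in 20 of the 27 separate pairs: 14 joined 21 nt with 21 nt, 4 joined 24 nt with 24 nt, and 1 each joined 20 with 20 nt and 22 with 22 nt. In the direction of transcription, the upstream member was longer in 4 pairs and the downstream member in 3. The difference was 1 nt in 4 pairs, 2 nt in 2 and 3 nt in 1. The pairs of URS000039C9E6 and of URS000006A46E, each with a difference of 1 nt, also held a 21-nt identifier with several positions, not counted here. Of the 9 members of 24 nt, 8 had a 24-nt partner. The exception was URS00001C9D79 on chromosome 2, the pair with the difference of 3 nt. Members of 21 nt were also mostly joined with each other, at 14 of 17 upstream and 14 of 15 downstream members. Such matching is therefore not called particular to 24 nt.

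The 4 pairs of 24-nt members differed in the distance between them. The pairs on chromosomes 4 and 8 had 10 and 18 bases between members, as given above. The other 2, named here after their values were seen, were URS000023D40E with URS000015EC44 on the plus strand of chromosome 6 (21164798 to 21164917, 72 bases between) and URS000044BADA with URS00003D65B6 on the plus strand of chromosome 3 (34000604 to 34000727, 76 bases between). No 24-nt pair was as wide as the widest 21-nt pairs. The 14 pairs of 21 nt with 21 nt ran from 28 to 177 bases, with a median of 63.5, and the 4 of 24 nt with 24 nt from 10 to 76, with a median of 45. The ranges overlapped, and with 4 pairs no difference was tested.

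**Figure D3:**
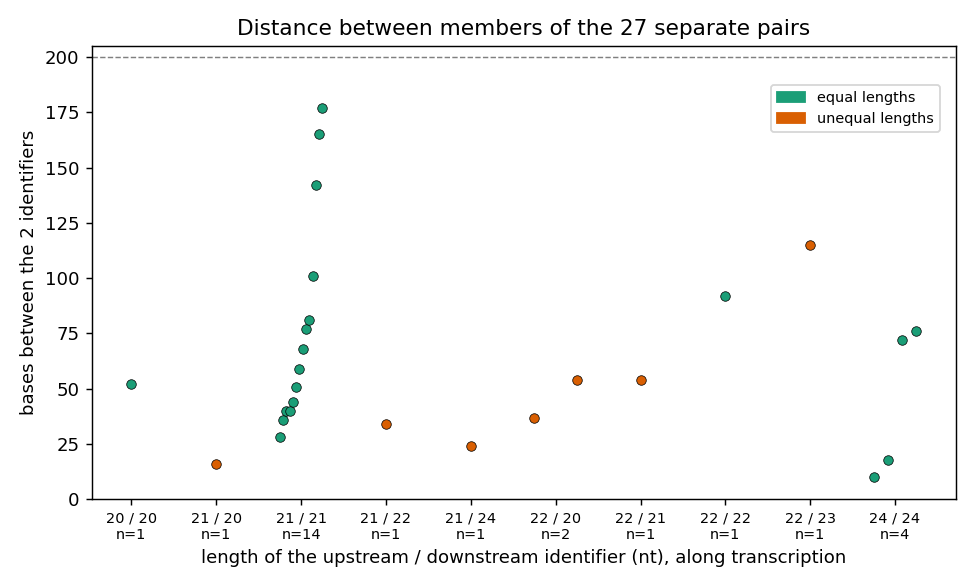
Each point is 1 of the 27 separate pairs. The x axis gives the lengths of the upstream and downstream member in nt, the y axis the bases between them, and the dashed line the limit of 200 bases in the rule. Pairs of equal length run from 10 to 177 bases and pairs of unequal length from 16 to 115.

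Members of 22 nt sat mostly on the upstream side. There were 7 in separate pairs, 5 upstream and 2 downstream, against 17 upstream and 15 downstream for 21 nt, and 1 upstream and 4 downstream for 20 nt. In URS00002CF3A5 with URS00002A5632 (plus strand of chromosome 11, 16277662 to 16277740, 37 bases between) a 22-nt member preceded a 20-nt one. The same order was found in URS00004754D8 with URS00005D4C3E (plus strand of chromosome 1, 39637075 to 39637170, 54 bases between). In URS000039C9E6 with URS00000FFF13 (minus strand of chromosome 4, 34931885 to 34931981, 54 bases between) a 22-nt member preceded a 21-nt one. The order was turned in URS00004F869A with URS00002A26D6 (minus strand of chromosome 5, 26275246 to 26275322, 34 bases between), where the 21-nt member came first. The upstream 22-nt members URS000039C9E6 and URS000006A46E each shared bases with a 21-nt identifier with several positions, given below. The counts by side leave those identifiers out. These counts are small and were not tested.

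At 3 of the 30 loci the members could not all be opposite arms of one duplex. On the minus strand of chromosome 12, URS0000334BC5 (25664791 to 25664811) and URS0000360512 (25664780 to 25664800), both 21 nt, shared 10 bases and were offset by 11. A base belongs to 1 arm of a duplex at most, so these 2 are not opposite arms over the shared stretch. On the plus strand of chromosome 5, URS0000221C1E (26308004 to 26308024, 21 nt) lay wholly within URS000058418A (26307936 to 26308034). The latter is 99 nt long, beyond a mature miRNA, and its entry credits Rfam, a database of RNA families, besides ENA. The 21-nt identifier began 68 bases after the start of the long one and ended 10 bases before its end, so it lies toward the downstream end. No source used here says how the authors assigned reads over such overlaps.

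The locus with 3 single-position identifiers was on the minus strand of chromosome 11, from 959609 to 959801. All of its members were 21 nt. In the direction of transcription URS00004927E8 (959781 to 959801) came first. After 127 bases followed URS00002DDF14 (959633 to 959653), and 3 bases later URS000056FE94 (959609 to 959629). The adjacent members thus started 24 bases apart. The outer members had 151 bases between them.

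Identifiers with several positions added further entries to 4 of the separate pairs, all on the members' strand. On chromosome 4, the 21-nt URS00004A46D8, with 2 positions, shared 21 bases with the 22-nt URS000039C9E6. On chromosome 2, the 21-nt URS0000440877, also with 2 positions, shared 20 bases with the 22-nt URS000006A46E. In both cases the member that shared bases was the 22-nt one.

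The other 2 cases had an additional identifier between the members. They were named after their values were seen. On chromosome 8, the 22-nt pair URS000018983F and URS00003C0627 (plus strand, 26803136 to 26803271, 92 bases between) had the 21-nt URS00004D7772 at 26803159 to 26803179, 1 base after the upstream member and 70 before the downstream one. URS00004D7772 has 6 positions in the annotation. On chromosome 2, the wide pair URS00000E7487 and URS00000C43D5 enclosed the 21-nt URS0000127C0D, at 55 bases from the former and 66 from the latter, and a further 21-nt identifier, URS0000258493, lay 63 bases beyond URS00000C43D5. Each of these has 2 positions. All 4 identifiers were on the minus strand.

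The loci were found on 9 of the 12 chromosomes. Chromosome 11 had the most, with 6 loci and 13 members among its 21 single-position identifiers (61.9%). Chromosomes 2, 3, 5 and 8 had 4 loci each, chromosome 1 had 3, chromosomes 4 and 6 had 2 each and chromosome 12 had 1. Chromosomes 7, 9 and 10 had none, and only 7, 4 and 4 single-position identifiers. The share of members on the other 8 chromosomes lay between 18.2% on chromosome 12 and 47.1% on chromosome 8. These are shares of a list, in which members come by pairs, and were not tested.

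**Figure D4:**
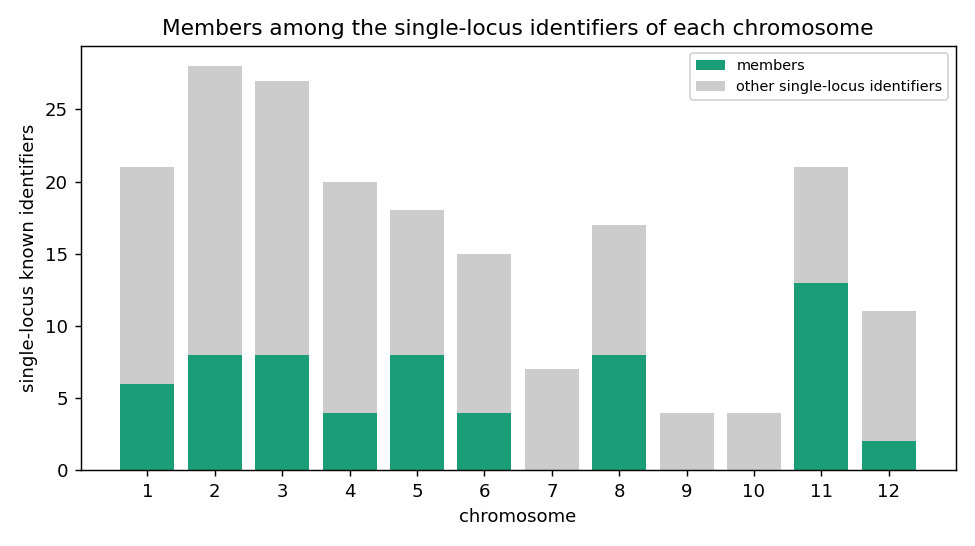
Bars give the number of single-position known identifiers (y axis) on each chromosome (x axis), with members in green and the others in grey. Chromosome 11 has 13 members of 21 identifiers, and chromosomes 7, 9 and 10 have no member.

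The predicted loci are listed by the authors as new. Whether positions near known miRNAs were left out when that list was made was not tested. None of the 30 loci had a predicted locus within 100 bases and 1 had one within 10000 bases. That was URS00004F38F3 with URS00002BD412 on the plus strand of chromosome 5 (8862162 to 8862239, both 21 nt), at 7600 bases from the predicted locus at 8869840 to 8869917. The median distance to the nearest predicted locus was 191202 bases. The same distance was not computed for the other known identifiers, so it is not called particular to the members. The predicted loci had a median length of 66 bases, taken as end minus start, with a range from 36 to 99. By the same measure the separate pairs had a median of 95, and 12 of the 27 were longer than 99. No source used here says whether the authors limited the length of a predicted locus.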

How the data were processed

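Small RNA was extracted with Trizol and made into TruSeq libraries, per the labels' protocols. The tools fastp, Bowtie, bedtools and Subread come from the submitters' processing notes, which give no versions. Taken from the deposited files were values of other kinds than expression: positions of RNAcentral alignments of 285 known miRNAs, identifiers of the authors' table rows, and positions of 1016 predicted loci in row names. The 16 per-library columns of the count tables matched no label and were not used, so no planned value of arm balance was computed.

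Identifiers with 1 alignment were paired on the same chromosome and strand with at most 200 bases between them, and linked pairs were joined into loci. Length is the sum of aligned exons. Upstream and downstream follow the strand. Predicted loci were compared on either strand, assuming a shared build. The members, lists and named identifiers were chosen with earlier results of these data known. Named were overlapping members, loci of 3, members outside 20 to 24 nt, the 5 narrowest and 5 widest pairs and pairs of unequal length. All other identifiers were named after their values were seen. No test was made, since positions have no replicates. The pairing was tested on simulated data. Python 3.11.15, NumPy 2.4.6 and Matplotlib 3.10.9 were used.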

Additional observations from a re-analysis of the deposited data

How the results depend on the processing

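The number of members was 61 in 30 loci. It was 50 in 25 loci with at most 100 bases between members, 61 in 30 with 300 and 67 in 33 with 500. It stayed at 61 in 30 on either strand and on chromosomes 1 to 12 alone, and was 59 in 29 with identifiers of 20 to 24 nt alone. No single-position identifier lies outside chromosomes 1 to 12, so the limit to them could not change the count. Admitting identifiers with up to 5 positions raised it to 111 identifiers in 63 loci, by construction, since more positions were searched. The median distance over all 32 combinations, overlaps counted as negative, was 53 bases, 54 without overlaps and 52 without the locus of 3; as a span it was 96.5. Lengths were equal in 20 pairs by aligned or genomic length, which could not differ, since no member alignment had a gap. No paired analysis was made, since no column could be matched to a sample and the columns were left unused. Arm balance within a library would not need a label, but it was not computed, and the alternatives set for it were not run. Leaving the columns unused limits the results to positions. Reads, depth and sequences were not analysed here.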

Other observations

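Of the 92 known identifiers with several positions, 36 (39.1%) had at least 1 position within 200 bases of another identifier on the same strand. These have more positions at which to be found, so the share is not comparable with that of the single-position identifiers.

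The closest loci of members were on chromosome 11, where URS00002CF3A5 with URS00002A5632 on the plus strand and URS0000464D75 with URS0000338E10 on the minus strand were 12792 bases apart. On chromosome 5, 32613 bases lay between the minus-strand pair of URS00002A26D6 and the plus-strand locus of URS000058418A. The only other identifier longer than 24 nt, URS000037F27C of 106 nt, was on the same strand 3218 bases from that locus. It also credits Rfam and has no neighbour within 200 bases among the single-position identifiers.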
